A study of Spinacia oleracea with 24 samples.

Results

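A set of 4 genes of photosynthetic carbon fixation were followed through the day in spinach leaves (Spinacia oleracea, cultivar Space). They are Spo12437 and Spo21477, both named RBCS2 after the small subunit of Rubisco, Spo00116, named Rubisco activase, and Spo18028, named FBA2 after a chloroplast fructose-bisphosphate aldolase. The 4 genes were taken by their identifiers from a table of 25494 genes. Plants were 48 days old and grew in a soil-free medium with 8 h of light a day, with nitrogen fertilizer at 50 ppm (low nitrogen, LN) or 200 ppm (high nitrogen, HN). Leaves of LN and of HN plants were sampled when the dark period ended (end of dark), midway through the light period (mid-light), when the light period ended (end of light) and midway through the dark period (mid-dark), from 3 plants in each of the 8 groups and within 1 day.

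Rubisco fixes carbon dioxide in the chloroplast and is built from large subunits, encoded in the chloroplast genome, and small subunits, encoded by a family of nuclear RBCS genes. Rubisco activase uses ATP to remove sugar phosphates that block the active sites of Rubisco. Aldolase joins triose phosphates into sugar bisphosphates later in the same cycle, the Calvin cycle, and other isozymes act in the cytosol. Rubisco is among the most abundant leaf proteins and holds a large share of leaf nitrogen, which is why its genes are of interest under differing nitrogen supply.

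Levels are FPKM, that is, fragments per kilobase of gene length scaled by a factor for each library, so that genes of different length can be set side by side. The summed FPKM of a library lay between 653215 and 1008934. Between 18369094 and 25252705 fragments fell in genes in each of the 24 libraries. Of 70 chlorophyll-binding and photosystem genes used to check the leaf label, 56 averaged at least 1 FPKM, and their summed level lay between 18531 and 156143 FPKM. The summed level of 9 root and seed genes was at most 1.06 FPKM, with 5 of the 9 at 0 in all libraries. The phloem gene SUC2 reached at most 0.42 FPKM. Leaves hold phloem, and this was the 1 gene of its list, so its level does not show phloem to be absent. There were 3 LN libraries that lay farthest from their group means over all genes, namely plant 3 of the end of light, plant 3 of mid-dark and plant 2 of the end of dark. Results were therefore also computed without these 3. In whole leaf, fewer cells of a type and less RNA per cell cannot be told apart. Differences below are on the log2(FPKM + 1) scale with the standard error (SE), and a gene was called where its limma test, adjusted by Benjamini-Hochberg over 18110 tested genes, gave p under 0.05. All 4 genes passed the filter on low values. Where ranges of plants are said to overlap or not, this is a description, and the share over all genes was not computed.

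The first small subunit gene, Spo12437 (scaffold SpoScf_04933, 3180 to 3670, minus strand), averaged 7381 FPKM over the 24 libraries, against 3520 FPKM for Spo21477, and was called in none of the 12 comparisons. In LN it had 8621, 3636 and 6091 FPKM at the end of dark, and 8600, 9150 and 6716 FPKM at mid-light. Its LN values at the end of light were 6266, 9132 and 10875 FPKM, and at mid-dark 9055, 7749 and 4772 FPKM. The HN plants covered much the same span. They had 8301, 4333 and 7755 FPKM at the end of dark, 6898, 10046 and 5520 FPKM at mid-light, 8309, 8966 and 7822 FPKM at the end of light, and 5032, 7784 and 5722 FPKM at mid-dark. The ranges of LN and HN overlapped at all 4 times, and so did each group with the next when the 8 groups were put in order of their means. Averaged over the day, LN minus HN was 0.05 (SE 0.19, 95% confidence interval -0.35 to 0.45, limma adjusted p = 0.89).

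The second small subunit gene, Spo21477 (scaffold SpoScf_01005, 155448 to 156295, minus strand), was lower in LN. In LN it had 2072, 1197 and 1021 FPKM at the end of dark, 2854, 3378 and 2481 FPKM at mid-light, 799, 1720 and 3596 FPKM at the end of light, and 3140, 3758 and 710 FPKM at mid-dark. In HN it had 5306, 4193 and 6614 FPKM at the end of dark, 5312, 4802 and 4519 FPKM at mid-light, 3132, 6052 and 1804 FPKM at the end of light, and 5227, 5833 and 4953 FPKM at mid-dark. Every LN plant lay below every HN plant at the end of dark, at mid-light and at mid-dark, whereas the ranges overlapped at the end of light. The share of all genes with such gaps was not computed, so the gaps only describe Spo21477. The order of the means put the 4 HN groups above the 4 LN groups, although each group overlapped with its neighbour in that order. Over the day it averaged 2227 ± 1127 FPKM in LN and 4812 ± 1309 FPKM in HN (SD, n = 12 each).

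**Figure D1:**
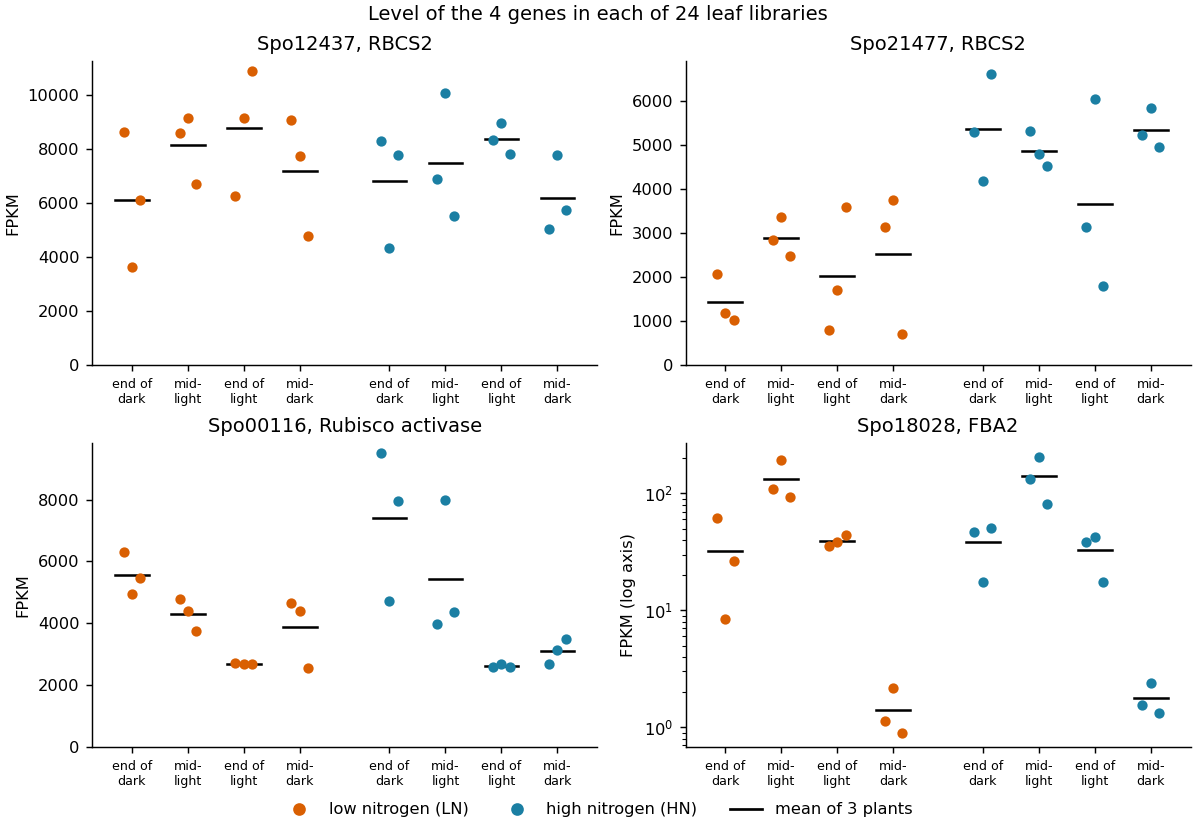
FPKM of the 4 genes in each library, LN in orange on the left and HN in blue on the right of each panel, with a point per plant and a line at the mean of 3 plants; the axis of FBA2 is logarithmic. Spo21477 averaged 1430 FPKM in LN and 5371 FPKM in HN at the end of dark, activase was lowest at the end of light, and FBA2 was above 80 FPKM in every library of mid-light and below 3 FPKM in every library of mid-dark.

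Averaged over the day, Spo21477 fell by 1.26 (SE 0.28, 95% confidence interval -1.84 to -0.67, limma adjusted p = 0.0065) in LN relative to HN. It was the 1 gene of the 4 called in this comparison, in which 16.5% of all tested genes were called. The difference stayed between -1.39 and -1.07 when each library was left out in turn, with adjusted p of 0.00245 to 0.0157, and was -1.18 without the 3 outlying libraries. In the same comparison 8 of 57 tested chlorophyll-binding and photosystem genes were called, all lower in LN, with a list median of -0.26. Their summed level was 18531 to 152658 FPKM in LN and 58073 to 156143 FPKM in HN. One of 2 tested epidermis markers was called, higher in LN, and none of 3 guard cell genes. The part of these genes in the result was not tested. At the end of dark Spo21477 fell by 1.95 (SE 0.56, limma adjusted p = 0.033), again as the 1 gene of the 4, against 9.97% of all genes. The mean FPKM in LN was 0.266 times that in HN. With the replicate number as a block within the end of dark, the adjusted p was 0.0447. Deviations of same-number LN and HN plants had correlations of 0.145, 0.414 and 0.136 at that time, but the labels state no link between them.

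The call at the end of dark depended on single plants and on the filter. It was lost without LN plant 2 (adjusted p = 0.0583) or plant 3 (adjusted p = 0.152), and without HN plant 1 (adjusted p = 0.0888), plant 2 (adjusted p = 0.054) or plant 3 (adjusted p = 0.104), and also without the filter on low values (adjusted p = 0.0561), while the difference stayed between -2.26 and -1.74. At this time 1 of 2 tested epidermis markers was called, higher in LN, and none of 57 tested chlorophyll-binding and photosystem genes or 3 guard cell genes. The summed level of 4 epidermis genes, 1 of them at 0 throughout, was 88.9 to 121 FPKM in LN and 29.3 to 35.9 FPKM in HN. The summed level of the chlorophyll-binding and photosystem genes was 41005 to 72002 FPKM in LN and 69666 to 97555 FPKM in HN, and that of 3 guard cell genes was 17.2 to 28.9 FPKM in LN and 15 to 15.8 FPKM in HN. Their part in the result was not tested.

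At the other 3 times none of the 4 genes was called for nitrogen. The shares of all genes called were 0.00552% at mid-light, 0.00552% at the end of light and 0.37% at mid-dark. Spo21477 differed by -0.76 at mid-light (95% confidence interval -1.92 to 0.41), by -0.93 at the end of light (-2.10 to 0.24) and by -1.39 at mid-dark (-2.56 to -0.22), each with SE 0.56 and an adjusted p of 0.21 or more by limma. Without the 3 outlying libraries, LN plant 3 of mid-dark among them, the mid-dark difference was -0.63. Whether the nitrogen effect itself differed between times was tested by an interaction term, which called 0.0828% of all genes and none of the 4, with an adjusted p of 0.79 for Spo21477.

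A further 3 genes of the table carry the name RBCS2, which makes 5 in all. Spo21476 (95792 to 96599) and Spo21472 (185807 to 187065) lie on scaffold SpoScf_01005 with Spo21477, and Spo12438 (4024 to 4263) lies beside Spo12437 on SpoScf_04933. Spo12438 is only 240 bases long and lies on the same strand as Spo12437. They are counted here as separate copies, and whether they are parts of a single gene was not tested. The sources used here do not say how a fragment that matched more than 1 copy was assigned, so the split between the copies is uncertain. Spo21476 moved the same way as Spo21477. It averaged 2534 ± 1013 FPKM in LN and 4061 ± 904 FPKM in HN (SD, n = 12 each) and fell by 0.74 over the day (SE 0.19, limma adjusted p = 0.014). Spo21472, the third copy on that scaffold, averaged 2417 ± 371 FPKM in LN and 2723 ± 815 FPKM in HN and was not called. Spo12438 averaged 811 ± 264 FPKM in LN and 653 ± 287 FPKM in HN and was not called either. In all, 2 of the 5 RBCS2 genes fell and none rose (40% called, against 16.5% of all genes), with a median difference of -0.14 against 0.00 over all tested genes.

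**Figure D2:**
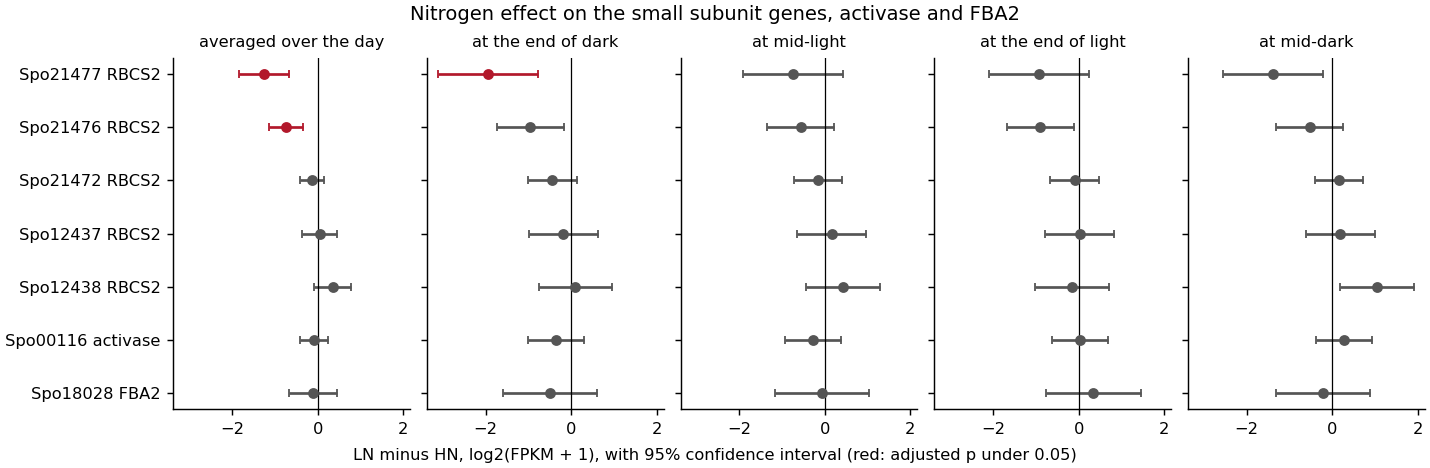
Difference LN minus HN on the log2(FPKM + 1) scale for the 5 small subunit genes, activase and FBA2, averaged over the day and at each time; points are limma estimates, bars 95% confidence intervals, red where the adjusted p is under 0.05. Spo21477 (-1.26) and Spo21476 (-0.74) were called for the average over the day, and Spo21477 (-1.95) at the end of dark.

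Because 1 RBCS2 gene of the pair was lower in LN and the other was not, the make-up of their summed level differed. Spo12437 made up 78.3% ± 6.7 of the summed FPKM of Spo12437 and Spo21477 in LN and 59.9% ± 9.5 in HN (SD, n = 12 each). The difference of 18.4 percentage points gave p = 5e-05 in a two-sided exact permutation test of the nitrogen labels within times, or 0.0001 adjusted over 2 such tests, where the smallest p possible was 1.25e-05. The share was chosen with the lower level of Spo21477 in LN known and restates it, so this p is no separate support. By time, the share was 75.2% to 85.6% in LN and 50.8% to 61.0% in HN at the end of dark, and 73.0% to 75.1% in LN and 55.0% to 67.7% in HN at mid-light. It was 75.1% to 88.7% in LN and 59.7% to 81.3% in HN at the end of light, and 67.3% to 87.0% in LN and 49.0% to 57.2% in HN at mid-dark (n = 3 each). LN and HN plants overlapped at the end of light and at no other time. Leaving out each library in turn gave 17.0 to 19.7 percentage points. The share rests on the gene lengths that enter FPKM, 372 bases for Spo12437 and 543 bases for Spo21477. In fragments at the end of dark, HN plants held 35703 to 59357 of Spo12437 and 50430 to 73889 of Spo21477. LN plants held 35077 to 73971 of Spo12437 and 11342 to 25952 of Spo21477 at that time.

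**Figure D3:**
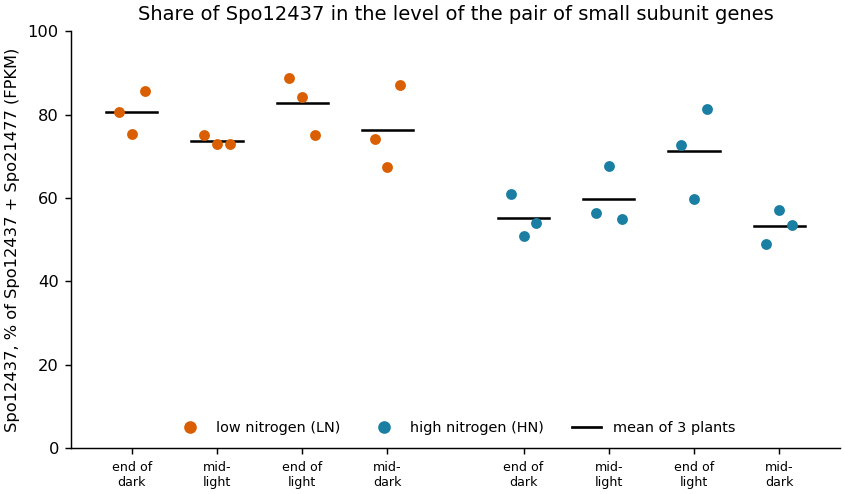
Share of Spo12437 in the summed FPKM of Spo12437 and Spo21477, in percent, with a point per plant and a line at the mean of 3 plants. LN plants lay between 67.3% and 88.7%, HN plants between 49.0% and 81.3%.

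Over all 5 copies the share of Spo12437 was 48.7% ± 5.9 in LN and 37.1% ± 6.4 in HN (SD, n = 12 each), and here the ranges of LN and HN did not overlap at any of the 4 times. This share was added once the data had been seen. Its sum holds Spo21477 and Spo21476, both lower in LN, so it restates their level and is no separate support. The 3 copies on SpoScf_01005 summed to 7178 ± 2259 FPKM in LN and 11596 ± 2558 FPKM in HN. The 2 copies on SpoScf_04933 summed to 8366 ± 2269 FPKM in LN and 7860 ± 1920 FPKM in HN. The 5 copies together gave 15544 ± 4112 FPKM in LN and 19456 ± 3728 FPKM in HN, which was 1.87% ± 0.47 of all FPKM in LN libraries and 2.32% ± 0.40 in HN libraries. These sums were not tested.

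**Figure D4:**
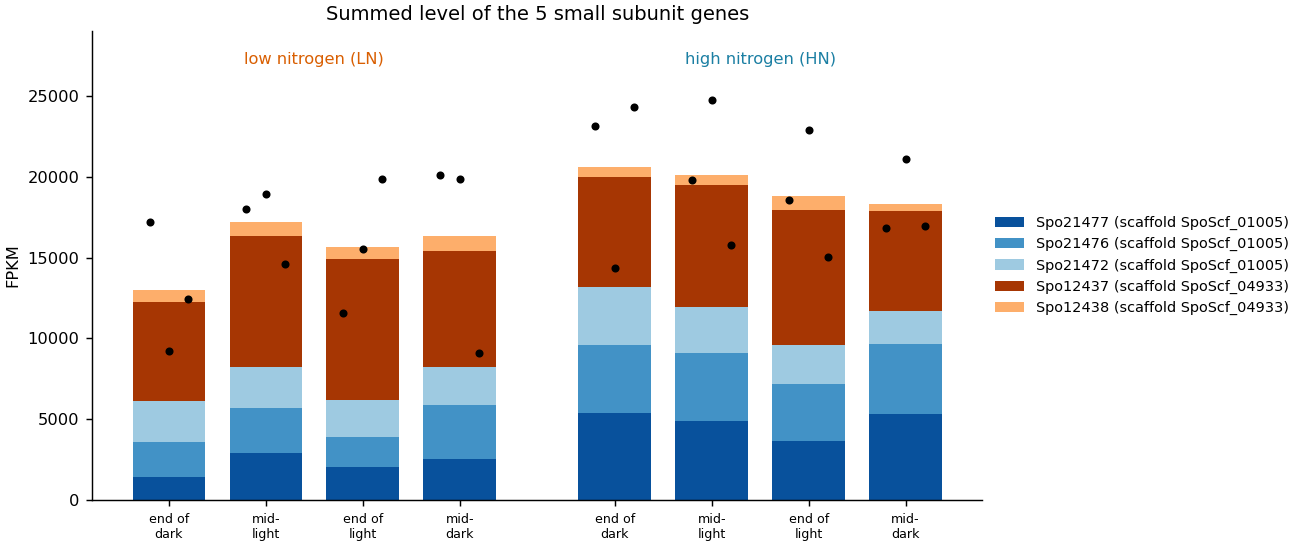
Mean FPKM of the 5 RBCS2 genes stacked by group, LN on the left and HN on the right; blue parts are copies on SpoScf_01005, brown and orange parts copies on SpoScf_04933, and black points the sum in each plant. The blue parts summed to 6151 FPKM in LN and 13156 FPKM in HN at the end of dark, and the brown and orange parts to 6816 FPKM in LN and 7451 FPKM in HN.

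None of the 5 RBCS2 genes was called for a change over the day at either nitrogen level, against 28.7% of all genes in LN and 38.9% in HN. For Spo12437, mid-light minus mid-dark came to 0.22 (LN) and 0.26 (HN), and the end of light minus end of dark to 0.57 (LN) and 0.35 (HN), each with SE 0.39. For Spo21477, mid-light minus mid-dark came to 0.50 (LN) and -0.13 (HN), and the end of light minus end of dark to 0.32 (LN) and -0.70 (HN), each with SE 0.56. The 95% confidence intervals of all 8 values reached past a 2-fold change. Without the 3 outlying libraries, Spo21477 was called for time of day in LN (limma adjusted p = 0.035, against 0.42 with all libraries).

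Rubisco activase, Spo00116 (chromosome 1, 28104750 to 28107539, plus strand), was highest at the end of dark and lowest at the end of light. In LN it had 6294, 4933 and 5455 FPKM at the end of dark, 4780, 4407 and 3741 FPKM at mid-light, 2727, 2670 and 2686 FPKM at the end of light, and 4663, 4406 and 2543 FPKM at mid-dark. In HN it had 9487, 4728 and 7966 FPKM at the end of dark, 3988, 7979 and 4370 FPKM at mid-light, 2584, 2698 and 2584 FPKM at the end of light, and 2698, 3150 and 3508 FPKM at mid-dark. The plants of the end of light were the most alike, with an SD of 29.3 FPKM in LN and 66.3 FPKM in HN, and all of them lay below all plants of the end of dark at the same nitrogen level.

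End of light minus end of dark was -1.04 in LN (SE 0.32, limma adjusted p = 0.020) and -1.44 in HN (SE 0.32, limma adjusted p = 0.0018), so activase was lower at the end of light at both nitrogen levels. It was the 1 gene of the 4 called in each of these, against 26.0% of all genes in LN and 32.7% in HN. The mean FPKM at the end of light was 0.484 times that at the end of dark in LN and 0.355 times in HN. The LN call was lost without LN plant 1 of the end of dark (adjusted p = 0.0589), without the filter on low values (0.0709) and in a fit of the LN groups of these times alone (0.123). Over all 4 times, activase changed in HN (limma adjusted p = 0.0038) and was not called in LN (adjusted p = 0.079). That LN value was 0.0449 with every library scaled to 1 sum of FPKM, 0.0446 with voom, and 0.0456 without LN plant 3 of mid-dark. Nitrogen had no called effect on activase, with LN minus HN of -0.08 over the day (95% confidence interval -0.41 to 0.25). The interaction of nitrogen and time was not called for it (adjusted p = 0.80). The summed level of the chlorophyll-binding and photosystem genes in LN was 49881 to 151994 FPKM at the end of light and 41005 to 72002 FPKM at the end of dark. The HN sum was 71432 to 141626 FPKM at the end of light and 69666 to 97555 FPKM at the end of dark, and these ranges overlapped at each nitrogen level.

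The other 2 genes that carry the name of Rubisco activase were far lower. Spo24732, named after the rice enzyme, averaged 38.4 ± 8.4 FPKM in LN and 52.3 ± 7.3 FPKM in HN (SD, n = 12 each) and fell by 0.45 in LN over the day (SE 0.12, limma adjusted p = 0.014). Spo18813, whose name comes from a red alga, averaged 18.9 ± 9.2 FPKM in LN and 21.5 ± 10.8 FPKM in HN and changed with time of day in HN (limma adjusted p = 0.035).

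The level of activase relative to the small subunits was set by library as the FPKM of Spo00116 over the summed FPKM of Spo12437 and Spo21477. In LN the ratio was 0.792 ± 0.217 at the end of dark, 0.392 ± 0.035 at mid-light, 0.273 ± 0.103 at the end of light and 0.410 ± 0.047 at mid-dark (SD, n = 3 each). In HN it was 0.602 ± 0.082, 0.433 ± 0.105, 0.225 ± 0.044 and 0.274 ± 0.050 at the same times. LN and HN ranges overlapped at every time but mid-dark. On the log2 scale LN minus HN was 0.27, with p = 0.058 in the two-sided exact permutation test and the same value after adjustment over 2 tests. With all 5 RBCS2 genes in the sum it was 0.27 with an exact permutation p of 0.025. That sum was added once the data had been seen, and its p is not adjusted. Activase itself differed by -0.08 over the day, whereas Spo21477, which is part of either sum, was lower in LN. The ratio takes up that difference, so neither p is separate support.

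FBA2, Spo18028 (scaffold SpoScf_00434, 109037 to 117593, plus strand), had the largest day change of the 4. It takes its name from the Arabidopsis thaliana gene. In LN it had 61.6, 8.5 and 26.6 FPKM at the end of dark, 109, 193 and 92.7 FPKM at mid-light, 35.4, 38.2 and 44.3 FPKM at the end of light, and 1.14, 2.15 and 0.89 FPKM at mid-dark. In HN it had 46.4, 17.6 and 50.5 FPKM at the end of dark, 134, 207 and 81.0 FPKM at mid-light, 38.5, 42.3 and 17.3 FPKM at the end of light, and 1.56, 2.39 and 1.33 FPKM at mid-dark. The lowest libraries still held 45 fragments of the gene. Both mid-light groups lay above all other groups and both mid-dark groups below them, whereas the end-of-dark and end-of-light groups overlapped.

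Mid-light minus mid-dark was 5.76 in LN (SE 0.53, limma adjusted p = 8.5e-07) and 5.60 in HN (SE 0.53, limma adjusted p = 1.4e-06). FBA2 was the 1 gene of the 4 called in each, against 7.66% of all genes in LN and 23.7% in HN. It had been named among the strongest changes of this comparison before the 4 genes were chosen, so this is a description. In FPKM the ratio of the means was 94.6 in LN and 79.8 in HN. Adding 1 to FPKM makes the log2 difference smaller where levels are as low as at mid-dark. With 0.1 added instead, the difference was 6.48 in LN and 6.18 in HN, and with voom 6.62 in LN and 6.26 in HN. Between the end of light and the end of dark the difference was 0.66 in LN and -0.18 in HN (SE 0.53 each) and was not called. For any change over the 4 times, FBA2 was the 1 gene of the 4 called in LN (limma adjusted p = 1.6e-06), against 28.7% of all genes. In HN, FBA2 (limma adjusted p = 1.9e-06) and activase were called, 2 of 4, against 38.9% of all genes. LN minus HN over the day was -0.11 (95% confidence interval -0.66 to 0.44) and was not called, nor was the interaction with time (adjusted p = 0.90). The summed level of the chlorophyll-binding and photosystem genes moved with FBA2. In LN it was 119175 to 152658 FPKM at mid-light and 18531 to 55314 FPKM at mid-dark, and in HN 123797 to 156143 FPKM at mid-light and 58073 to 74693 FPKM at mid-dark. Its part in the result was not tested.

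Most chloroplast aldolase message came from another gene. Spo11286, named after the chloroplast aldolase of spinach, averaged 4451 FPKM over the 24 libraries, and FBA2 made up 3.15% ± 1.18 of the summed FPKM of the 4 chloroplast aldolase genes in LN and 2.37% ± 0.61 in HN at mid-light. In mid-dark that share was 0.033% ± 0.014 in LN and 0.053% ± 0.018 in HN (SD, n = 3 each). Over the 24 libraries the level of Spo11286 was closer to that of activase (r = 0.92) than to that of FBA2 (r = 0.20). Its end of light minus end of dark was -0.91 in LN (SE 0.32, limma adjusted p = 0.041) and -1.48 in HN (SE 0.32, limma adjusted p = 0.0015), whereas its mid-light minus mid-dark, not called, came to -0.02 in LN and 0.71 in HN. Among the cytosolic genes, Spo13561, the cytoplasmic isozyme, was the 1 aldolase of 6 called for nitrogen over the day, a share of 16.7% against 16.5% of all genes. It rose by 0.44 in LN (SE 0.14, limma adjusted p = 0.037), with 167 ± 50.1 FPKM in LN and 134 ± 74.2 FPKM in HN (SD, n = 12 each). It also rose by 0.95 in LN at the end of dark (SE 0.28, limma adjusted p = 0.037). In HN, Spo13561 was called for mid-light minus mid-dark (1.35, SE 0.28, limma adjusted p = 0.0021). End of light minus end of dark was called in HN too (1.15, SE 0.28, limma adjusted p = 0.0041). The LN differences of 0.53 and 0.48 in the same order were not called. FBA5 (Spo21659, 423 FPKM on average) and both genes named FBA3 (Spo00339, 42.9 FPKM, and Spo13468, 4.04 FPKM) were called in none of the 12 comparisons.

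**Figure D5:**
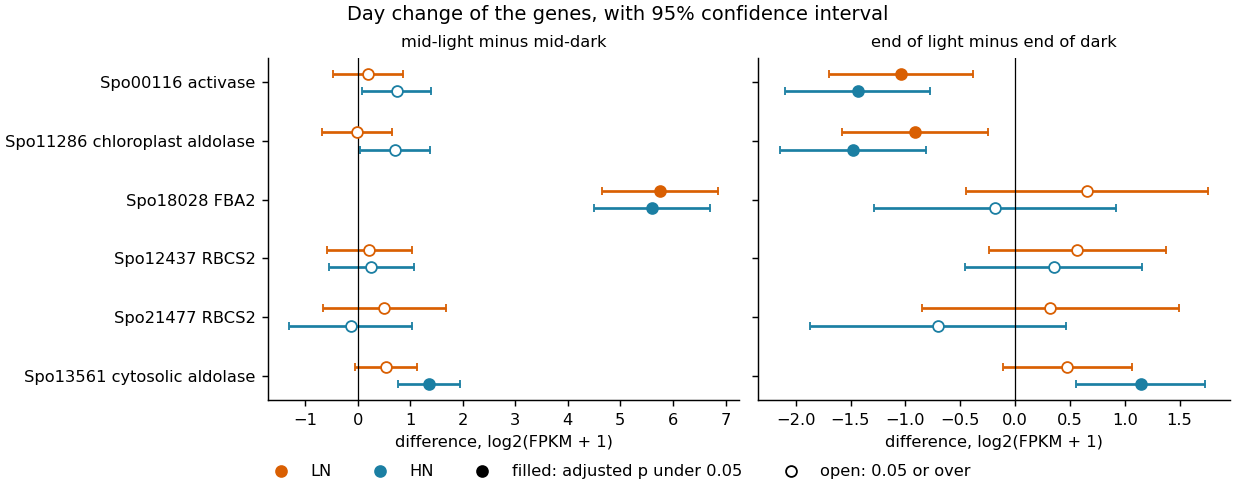
Change of activase, 3 aldolases and the pair of small subunit genes between mid-light and mid-dark (left) and between the end of light and the end of dark (right), on the log2(FPKM + 1) scale; points are limma estimates in LN (orange) and HN (blue), bars 95% confidence intervals, filled where the adjusted p is under 0.05. FBA2 stands at 5.76 in LN and 5.60 in HN on the left, and activase at -1.04 in LN and -1.44 in HN on the right.

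Lists of related genes were taken by protein name, so the Calvin cycle list also holds enzymes named as cytosolic, which act outside that cycle. For nitrogen averaged over the day, 2 of 26 tested genes of that list were called (7.69%, against 16.5% of all genes), both lower in LN. They were transketolase (Spo12818, 1039 FPKM in LN and 1442 FPKM in HN, difference -0.48) and a fructose-1,6-bisphosphatase named as cytosolic (Spo19523, 218 FPKM in LN and 348 FPKM in HN, difference -0.66). The median of the list was -0.09. Of 22 tested photorespiration genes, the pathway that recycles the product of oxygen fixation by Rubisco, 3 were called (13.6%, against the same 16.5%), all lower in LN, with a list median of -0.10. One was glycolate oxidase (Spo19861), with 4144 FPKM in LN and 6847 FPKM in HN (difference -0.71, SE 0.14, limma adjusted p = 0.0032). The others were serine hydroxymethyltransferase (Spo16852, difference -0.55) and the dicarboxylate transporter DIT2 (Spo16424, difference -1.08, at 4.28 FPKM in LN and 8.65 FPKM in HN). These genes other than glycolate oxidase were named after their values were seen.

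Between the end of light and the end of dark, 4 of 18 tested genes of Rubisco assembly and modification rose and 1 fell in LN, and 6 rose and 1 fell in HN. The shares called, 27.8% in LN and 38.9% in HN, were near those of all genes, 26.0% in LN and 32.7% in HN. The list had medians of 0.39 in LN and 0.75 in HN against 0.00 in LN and 0.01 in HN over all genes. RBCX1 (Spo13780), an assembly chaperone of the large subunit, had 71.0 ± 29.7 FPKM at the end of light and 3.71 ± 0.87 FPKM at the end of dark in LN, and in HN 77.7 ± 20.9 FPKM at the end of light and 4.60 ± 2.01 FPKM at the end of dark (SD, n = 3 each). Its difference was 3.85 in LN and 3.83 in HN (SE 0.41 each, limma adjusted p = 1.4e-06 in LN and 1.2e-06 in HN). BSD2 (Spo26857), a chaperone of Rubisco assembly, rose by 2.08 in LN and 2.18 in HN (SE 0.29 each, limma adjusted p = 3.2e-05 in LN and 1.6e-05 in HN). RUBA (Spo11836), a chaperonin subunit that binds the large subunit, differed by 0.50 in LN and 0.92 in HN and was not called. In the Calvin cycle list, 3 of 26 rose and 3 fell in LN, and 4 rose and 3 fell in HN, with 23.1% called in LN and 26.9% in HN, below the shares of all genes. Cytosolic triosephosphate isomerase (Spo01808) rose by 1.21 in LN and 1.57 in HN, and RPI2 (Spo00005), named as a ribose-5-phosphate isomerase, by 1.47 in HN, while in LN its difference was 0.74 and was not called. GAPA (Spo21203) and the glyceraldehyde-3-phosphate dehydrogenase Spo24687, the 2 most abundant genes of that list, were called in none of the 12 comparisons. GAPA is named as chloroplastic, whereas the name of Spo24687 gives no compartment and does not show that it acts in the Calvin cycle. In photorespiration, 1 rose and 3 fell at each nitrogen level (18.2% called, again below all genes), among them the aminotransferase GGAT2 (Spo25324), which fell by 1.08 in LN and by 1.30 in HN. SHM4 (Spo03629), a further serine hydroxymethyltransferase, rose by 1.98 at mid-light relative to mid-dark in HN, while its LN difference of 1.12 was not called. Unlike Spo16852, which is named as mitochondrial, SHM4 has no compartment in its name, so the name does not show that it acts in photorespiration.

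The genes most like each of the 4 over the 24 libraries were found by Pearson's r of log2(FPKM + 1) among 12613 tested genes with a mean of at least 5 FPKM. These values describe libraries that share their scaling, times and nitrogen levels. For Spo12437 they were RPI3 (Spo18400, r = 0.87), the ferredoxin-NADP reductase PETH (Spo06319, r = 0.84) and chloroplast phosphoglycerate kinase (Spo25855, r = 0.84). For Spo21477 they were the cytochrome b6-f subunits petM (Spo06031, r = 0.95) and petC (Spo11298, r = 0.92) and chloroplast triosephosphate isomerase, TPIP1 (Spo15465, r = 0.92). For activase they were the phosphate transporter PHT2-1 (Spo05910, r = 0.93), the aldolase Spo11286 (r = 0.92) and the unnamed gene Spo25800 (r = 0.91). For FBA2 they were a protein phosphatase 2C (Spo08588, r = 0.98), the transporter ANTR1 (Spo21023, r = 0.95) and the tetrapyrrole-binding protein GUN4 (Spo20278, r = 0.94). For deviations from the group means, r in the same order was 0.75, 0.74 and 0.63 for FBA2 and 0.78, 0.76 and 0.70 for activase. It was 0.88, 0.88 and 0.95 for Spo12437 and 0.94, 0.89 and 0.90 for Spo21477. Between the 2 small subunit genes r was 0.32 over all libraries and 0.65 for deviations from the group means, and between Spo21477 and Spo21476 it was 0.88 over all libraries and 0.80 for deviations.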

How the data were processed

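Messenger RNA of whole leaves was sequenced from strand-marked libraries of single plants, per the labels' protocols. The tools, per the submitters' processing notes, include HISAT2, RSEM and DESeq2 (version 1.20.0), whose roles are not stated there. The series title gives Sp75 as the reference. The deposited values are FPKM, per the file headers, together with the gene length; the names and coordinates are those of the same table, and 0 identifiers matched the reference gene table. Within a library, values multiplied by gene length were whole multiples of the smallest unit (100% within a tolerance of 0.01), which gave back whole fragments. No library was a duplicate of another in its group (chi-square per degree of freedom 27.7 or more).

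Tested were genes with at least 1 FPKM in at least 3 of 24 libraries (18110 genes), on log2(FPKM + 1) with limma version 3.58.1 in R version 4.3.3, with 8 group means, 16 residual degrees of freedom, trended moderation of the variances and Benjamini-Hochberg adjustment over all tested genes. F tests were used for time of day and for the interaction. The share of Spo12437 and the activase ratio were tested over all 160000 arrangements of the nitrogen labels within times. The p-values rest on the spread among these plants.

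The genes named are the 4, all other RBCS2, activase and aldolase genes, the 2 most abundant members and the 2 with the smallest adjusted p for time of day in HN of each of 3 lists, and the 3 genes most like each of the 4. Beyond this rule, 4 genes of the Calvin cycle and photorespiration lists (Spo12818, Spo19523, Spo16852 and Spo16424) were named because they were called for nitrogen, once their values had been seen. The nitrogen comparison of the assembly list is not reported here. The 4 genes, the lists and the tests were chosen with earlier results of these data known, and the photorespiration list was narrowed by protein name after the table was seen. Same-number libraries of 2 groups had correlations of their deviations between -0.45 and 0.46 over 48 pairs. Of 16 pairs of groups only LN and HN at the end of dark had all 3 over 0.1 (0.145, 0.414 and 0.136). The labels state no link between the numbers, and 1 such pair among 16 may arise without any. Whether the numbers pair plants is thus not known, and a block within the end of dark was fitted in case they do. The fits were repeated without the filter, with a pseudocount of 0.1, with 1 sum of FPKM for all libraries, with only the compared groups, with the replicate block, with voom on recovered fragments, and without each library in turn. Added once the data had been seen were fits without the 3 outlying libraries, the block within the end of dark, and sums over all 5 RBCS2 genes.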

Additional observations from a re-analysis of the deposited data

How the results depend on the processing

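No value of the 4 genes that was called changed its direction under any alternative run. With the replicate block over all libraries, LN minus HN of Spo21477 was -1.26 over the day (limma adjusted p = 0.00913) and -1.95 at the end of dark (adjusted p = 0.0397). The share of Spo12437, which restates the level of Spo21477, stayed 18.4 percentage points (exact permutation p = 0.00146 from sign flips). Those flips paired LN and HN plants of the same number at all 4 times, although at mid-light their deviations had correlations of -0.29, -0.12 and -0.08. The replicate block changed no other call of the 4 genes. Of the 4 genes, the number called at the end of dark for nitrogen was 0 without the filter and 0 to 1 with single libraries left out. For the end of light against the end of dark in LN it was 0 without the filter, 0 with only the compared groups and 0 to 1 with libraries left out. For time of day in LN it was 2 with a common sum, 2 with voom, 2 without the 3 outlying libraries and 1 to 2 with libraries left out. The activase ratio was 0.27 (exact permutation p = 0.0251) with all 5 RBCS2 genes and 0.196 to 0.328 with libraries left out (exact permutation p of 0.0216 to 0.132). The p of 0.0251 was not adjusted, and the ratio takes up the lower level of Spo21477 in LN.

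Counts over all genes moved more. The nitrogen comparison at the end of dark had 1805 calls, against 316 with only the compared groups, 649 with the replicate block within that time, 3323 without the 3 outlying libraries and 376 to 2650 with libraries left out. In mid-light the count was 1, against 0 with a pseudocount of 0.1, 3 without the filter, 0 with voom, 24 without the outlying libraries and 0 to 3 with libraries left out. At the end of light it was 1, against 0 with the pseudocount of 0.1, without the filter, with only the compared groups and with voom, 178 without the outlying libraries and 0 to 10 with libraries left out. In mid-dark it was 67, against 44 without the filter, 0 with only the compared groups, 33 with voom, 11 without the outlying libraries and 0 to 234 with libraries left out. For mid-light against mid-dark in LN it was 1387, against 432 with only the compared groups, 2136 without the outlying libraries and 470 to 1756 with libraries left out, and in HN 4284, with 2534 to 4614. For the end of light against the end of dark in LN it was 4706, against 1583 with only the compared groups, and for time of day in LN 5197, against 2736. For the interaction it was 15, against 2 with the pseudocount of 0.1, 28 without the filter, 2 with voom, 296 without the outlying libraries and 0 to 96 with libraries left out. The cause of these moves was not tested.

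Scaling every library to 1 sum of FPKM shifted the median over all genes between mid-light and mid-dark to -0.21 in LN and -0.34 in HN, and FBA2 then stood at 5.59 in LN and 5.26 in HN. Depth was lowest for FBA2 at mid-dark, where libraries held 45 to 111 fragments of it, while each library held at least 8905 fragments of Spo21477.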
